A study of Mus musculus with 10 samples.

Results

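Messenger RNA levels of the 6 peroxiredoxins (Prdx1 to Prdx6), the cytosolic and mitochondrial thioredoxins (Txn1 and Txn2) and the sperm thioredoxins Txndc2 and Txndc8 were compared in testes of 6-week-old mice whose mothers had been underfed in pregnancy and of control mice. These 10 genes were chosen by name, as family members and their sperm relatives. They are 10 of the 23462 genes named on the array, and all 10 were among the 16738 genes that could be tested. They were read by 16 probes, each well above background on all 10 arrays. Prdx1, Prdx2, Prdx3 and Prdx4 fell in the sons of underfed mothers, and no member rose at the threshold used.

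The R group (5 mice) were sons of dams given 50% of the food eaten by control dams from 6.5 days post coitum onwards, and after birth they were suckled by unrelated control females. The C group (5 mice) were sons of dams fed without limit, and their own mothers reared them. All 10 males were C57BL/6N, an inbred strain, and all ate regular chow freely after weaning. Prenatal food supply and fostering therefore cannot be told apart, and the labels name no litters, so the p-values measure the spread between these animals. RNA of 1 whole testis per mouse was hybridised to a single-colour Agilent array. In such tissue fewer cells of a type and less RNA per cell cannot be told apart.

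Peroxiredoxins are enzymes that break down hydrogen peroxide with a reactive cysteine, which is oxidised in the process. Thioredoxins hand electrons to the oxidised enzyme, and thioredoxin reductases, which draw on NADPH, recharge the thioredoxins. Developing sperm cells use this chemistry both to remove peroxide and to cross-link proteins of the sperm head and tail, and they make thioredoxins of their own.

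Values are log2 signals, the log2 of an array's processed spot intensity relative to that array's 75th percentile, so a log2 signal of 0 is the 75th percentile and a difference of 1 is a doubling. The percentile was at an intensity of 804 to 1019, 56.6% to 67.4% of spots passed the scanner's background flag, and saturation was flagged on 0 spots. On the leading principal component, which held 60.4% of the variance, the R arrays lay between -49.2 and -33.6, C replicate 2 lay at 123 and the other C arrays lay between 13.9 and 29.5. Slide 1 carried 4 R and 2 C arrays, and slide 2 carried 1 R and 3 C arrays. C replicate 2 was on slide 1. The authors' deposited table counts R replicate 1 among its controls and C replicate 5 among its test arrays, which contradicts the labels. Groups here follow the labels, and replicate numbers only name the arrays in accession order. The count of members called is also given without C replicate 2, within slides, and without those 2 arrays.

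The DNA just upstream of the start sites separates the general members from the sperm thioredoxins. Starts of 9 members were found in the RefSeq promoter table for GRCm38.p6 (Prdx6 was not matched), with 2 starts for Txndc2. In the 250 bases before the start, Prdx2 had 23 CG pairs, Prdx5 had 17, Prdx1, Txn1 and Txn2 had 15 each, Prdx4 had 13 and Prdx3 had 9. Txndc8 had 4 CG pairs and the Txndc2 starts had 0 and 3. The median over all 32851 promoters of that table was 6, with quartiles of 2 and 16. The windows of 2 peroxiredoxins that fell and of both sperm thioredoxins follow, 5′ to 3′ on the coding strand and ending at the base before the start, with CG pairs in capitals to show this contrast.
Prdx1 (GRCm38.p6, chr4:116685349-116685598, plus strand): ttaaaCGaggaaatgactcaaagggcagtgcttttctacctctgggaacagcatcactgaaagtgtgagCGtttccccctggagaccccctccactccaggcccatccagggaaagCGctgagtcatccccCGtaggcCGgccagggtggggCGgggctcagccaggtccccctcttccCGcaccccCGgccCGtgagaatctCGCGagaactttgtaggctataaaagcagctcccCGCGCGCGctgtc
Prdx4 (GRCm38.p6, chrX:155338461-155338710, minus strand): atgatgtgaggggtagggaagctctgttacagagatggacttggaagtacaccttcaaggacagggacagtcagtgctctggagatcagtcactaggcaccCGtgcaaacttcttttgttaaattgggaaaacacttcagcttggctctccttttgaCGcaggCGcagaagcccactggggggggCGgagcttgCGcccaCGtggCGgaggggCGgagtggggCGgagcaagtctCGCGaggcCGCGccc
Txndc2 start A (GRCm38.p6, chr17:65639757-65640006, minus strand): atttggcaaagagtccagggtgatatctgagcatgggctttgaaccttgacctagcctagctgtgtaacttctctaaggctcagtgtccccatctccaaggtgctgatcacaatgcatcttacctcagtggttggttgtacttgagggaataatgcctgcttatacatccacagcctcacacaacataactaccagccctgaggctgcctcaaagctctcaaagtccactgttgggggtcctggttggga
Txndc2 start B (GRCm38.p6, chr17:65642205-65642454, minus strand): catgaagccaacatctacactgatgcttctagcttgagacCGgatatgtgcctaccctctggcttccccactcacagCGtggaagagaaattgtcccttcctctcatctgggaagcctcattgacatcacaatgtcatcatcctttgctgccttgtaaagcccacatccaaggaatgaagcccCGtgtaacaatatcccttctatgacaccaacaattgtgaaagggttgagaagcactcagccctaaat
Txndc8 (GRCm38.p6, chr4:58009127-58009376, minus strand): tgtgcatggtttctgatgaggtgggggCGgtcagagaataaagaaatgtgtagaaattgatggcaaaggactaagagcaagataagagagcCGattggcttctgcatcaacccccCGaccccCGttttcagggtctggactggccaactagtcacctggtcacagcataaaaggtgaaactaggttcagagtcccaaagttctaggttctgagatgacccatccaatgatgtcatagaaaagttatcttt
The core of the antioxidant response element (TGACNNNGC, either strand), through which oxidant-responsive factors act on many peroxidase genes, matched once in the Prdx1 window and once in the CG-free Txndc2 window, and in no other member window. It matched in 10.2% of all windows of that length. The GC box (GGGCGG, either strand) matched 3 times in the Prdx4 window, 4 times in that of Txn1, 2 times in that of Txn2 and once in those of Prdx1, Prdx3, Prdx5 and Txndc8, against at least 1 match in 32.7% of all windows. The cyclic AMP response element (TGACGTCA), found in 1.55% of all windows, matched in no member window. A match describes these letters and not binding.

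Prdx1 and Prdx2 are cytosolic peroxiredoxins, and both fell. Prdx1, on chromosome 4, had log2 signals of 3.69, 3.80, 3.56, 3.57 and 3.48 in R replicates 1 to 5, against 4.32, 4.83, 3.96, 3.96 and 4.26 in C replicates 1 to 5. Every R array lay under every C array. The means were 3.62 ± 0.12 in R testes and 4.27 ± 0.36 in C testes (SD, n = 5 each), a difference of -0.65 ± 0.16 (SE), or 0.639 times the C level (95% interval 0.502 to 0.813; limma adjusted p = 0.0117). The other 2 Prdx1 probes went the same way, by -0.96 ± 0.15 (limma adjusted p = 0.00257) and -0.57 ± 0.20 (limma adjusted p = 0.0493). By brightest probe, Prdx1 alone of the members passed the study's own criterion. It asks for an adjusted p under 0.05 together with a fold above 1.5 or under 0.66. Of all genes tested, 9.9% met it in either direction. The second Prdx2 probe also met it, at 0.587 times the C level (limma adjusted p = 0.00513).

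Prdx2, the abundant peroxiredoxin of red blood cells (chromosome 8), had log2 signals of 1.89, 2.15, 1.77, 1.81 and 1.75 in R replicates 1 to 5, against 2.57, 3.03, 2.12, 2.08 and 2.22 in C replicates 1 to 5. R replicate 2 stood above C replicates 3 and 4, so the groups overlapped. The difference was -0.53 ± 0.18 (SE; means 1.87 ± 0.16 in R testes and 2.40 ± 0.40 in C testes, SD, n = 5 each; limma adjusted p = 0.0393). At the second Prdx2 probe the groups did not overlap, and the difference was -0.77 ± 0.15 (limma adjusted p = 0.00513). The authors' deposited table lists that second probe with a log2 ratio of -0.587, a p of 0.0318 and a q of 0.515, under its own grouping. The call at the brighter probe was lost when any one of R replicates 1, 3, 4 or 5 or C replicate 1 was left out, with limma adjusted p up to 0.0806.

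Prdx3 is the peroxiredoxin of the mitochondrial matrix (chromosome 19), and it fell. Its log2 signals were 0.39, 0.36, 0.12, 0.07 and 0.08 in R replicates 1 to 5, against 0.87, 1.24, 0.48, 0.49 and 0.67 in C replicates 1 to 5. Its lowest C array, at 0.48, was above its highest R array, at 0.39. The difference was -0.55 ± 0.15 (SE; means 0.20 ± 0.16 in R testes and 0.75 ± 0.31 in C testes, SD, n = 5 each), or 0.684 times the C level (95% interval 0.545 to 0.858; limma adjusted p = 0.0173).

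Prdx4 works in the endoplasmic reticulum, where it uses peroxide to form disulphide bonds in secreted proteins, and mice without it lose germ cells. It lies on the X chromosome. Its log2 signals were 3.50, 3.41, 3.63, 3.22 and 3.41 in R replicates 1 to 5, against 3.91, 4.04, 3.92, 3.97 and 3.97 in C replicates 1 to 5. The C arrays lay close together and all stood above the R arrays. The difference was -0.53 ± 0.08 (SE; means 3.43 ± 0.15 in R testes and 3.96 ± 0.05 in C testes, SD, n = 5 each), or 0.694 times the C level (95% interval 0.615 to 0.783). With a limma adjusted p of 0.00204, it had the smallest p of the 10 members.

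**Figure D1:**
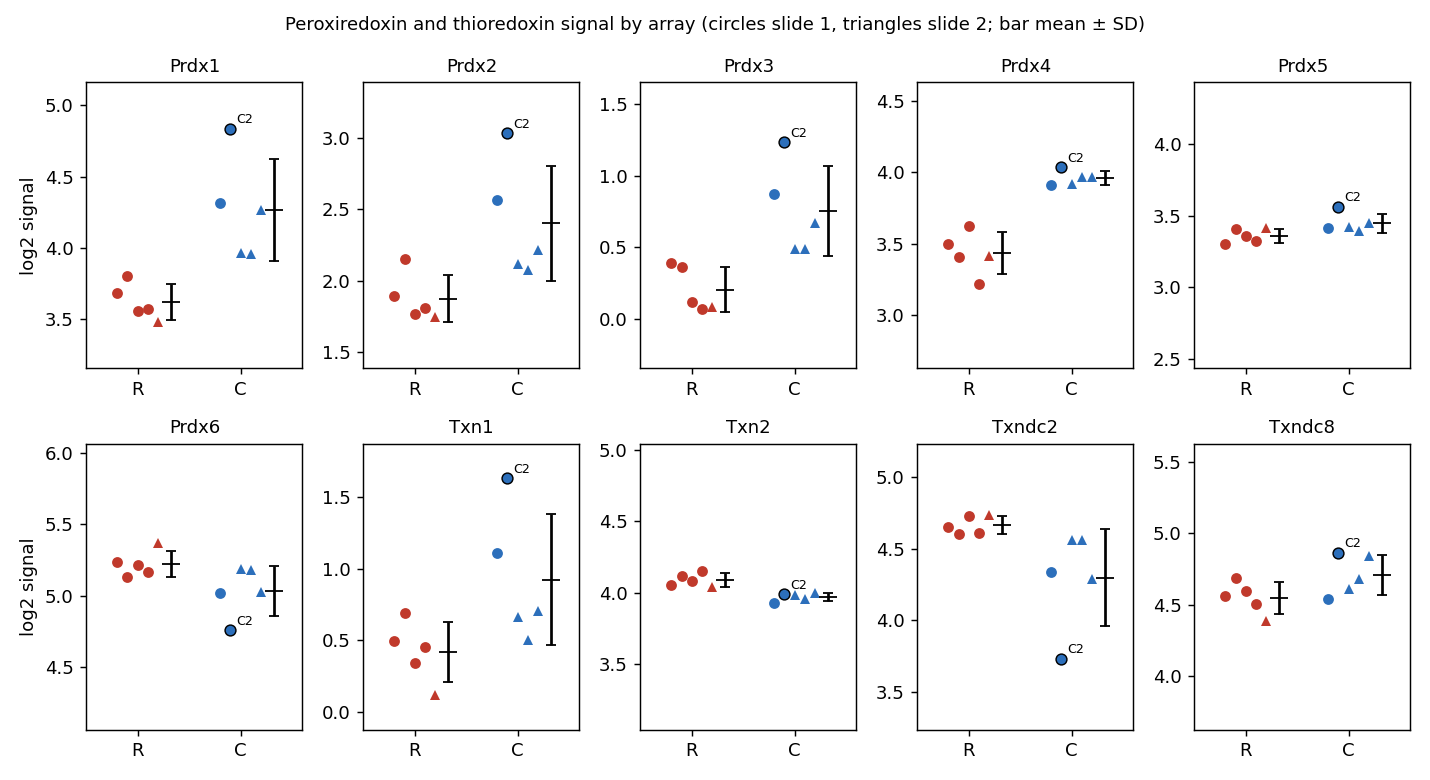
Log2 signal of the 10 members on each array, R to the left of C in each panel, with all panels spanning the same height in log2 units. Points are arrays (circles on slide 1, triangles on slide 2, C replicate 2 outlined), and the bars are means ± SD of 5 arrays. For Prdx1, Prdx3 and Prdx4 all R points lie under all C points, and C replicate 2 is the highest C array for 7 members and the lowest for Prdx6 and Txndc2.

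Of the 10 members, 4 fell and 0 rose by limma, against 20.6% lower and 14.9% higher among all genes tested. At an unadjusted p under 0.05 the counts were 5 lower and 2 higher, against 26.9% lower and 21% higher among all genes. The groups did not overlap for 3 members with lower R levels and for 2 with higher R levels, against 16.5% and 12.6% of all genes. By probe, 7 of the 16 fell and 0 rose, against 17.1% lower and 21.4% higher among all probes. The median difference over the members was -0.33, against -0.03 over all genes.

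Prdx5 and Prdx6 were not called. Prdx5 (chromosome 19), which can reside in mitochondria, peroxisomes and the cytosol and resolves its own oxidised cysteine within 1 protein chain, had log2 signals of 3.30, 3.41, 3.36, 3.32 and 3.41 in R replicates 1 to 5, against 3.42, 3.56, 3.42, 3.39 and 3.45 in C replicates 1 to 5. The groups overlapped within a narrow range. The difference was -0.09 ± 0.06 (SE; limma adjusted p = 0.249), with a 95% interval of 0.860 to 1.03 times the C level.

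Prdx6 (chromosome 1) has a single reactive cysteine, draws its electrons from glutathione and also acts as a phospholipase. Its brighter probe had log2 signals of 5.24, 5.13, 5.21, 5.17 and 5.37 in R replicates 1 to 5, against 5.02, 4.76, 5.19, 5.18 and 5.03 in C replicates 1 to 5. The difference was 0.19 ± 0.09 (SE; limma adjusted p = 0.122), while the second probe gave -0.19 ± 0.09 (SE; limma adjusted p = 0.111). The 2 probes thus gave values of opposite sign, which is not a statement on the gene in either direction. Prdx6b, a separately annotated copy of the gene that was named here after its values were seen, had a difference of 0.40 ± 0.18 (SE; means 1.04 ± 0.15 in R testes and 0.64 ± 0.42 in C testes, SD, n = 5 each; limma adjusted p = 0.105). Whether either Prdx6 probe also binds transcripts of the copy was not tested. Whether the differences of Prdx1 to Prdx4 differ from those of Prdx5 and Prdx6 was not tested either.

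**Figure D2:**
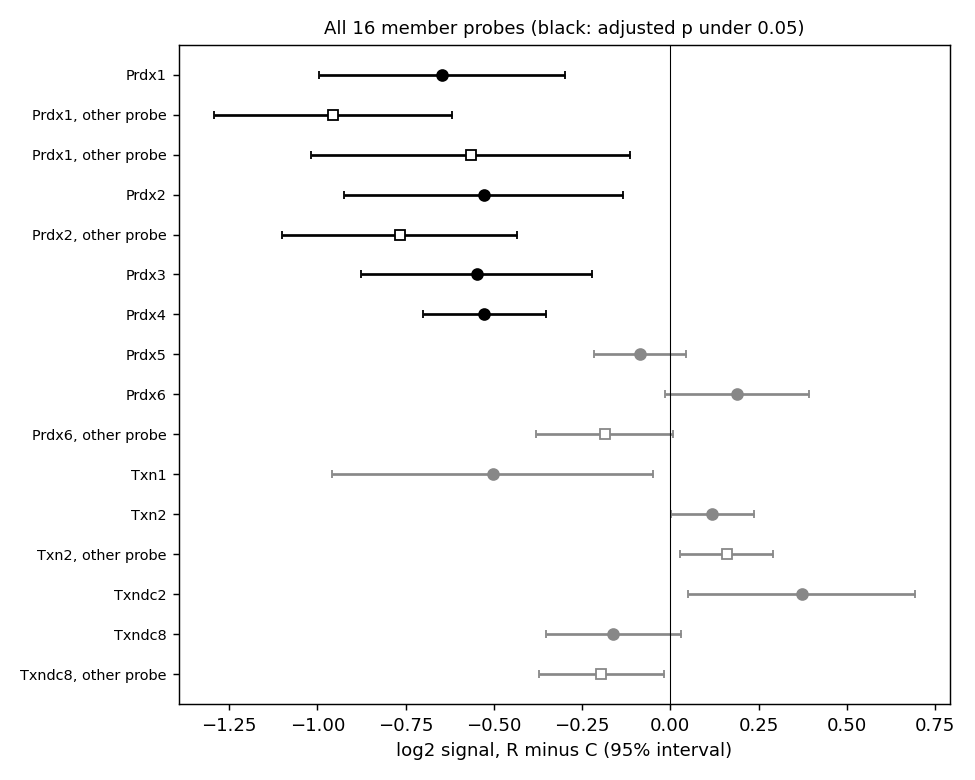
Difference in log2 signal, R minus C, at each of the 16 member probes, with 95% intervals. Filled circles are the brightest probe of a gene, open squares its other probes, and black marks an adjusted p under 0.05. All 7 black probes belong to Prdx1 to Prdx4 and lie below 0, and the 2 probes of Prdx6 lie on opposite sides of 0.

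The thioredoxins that recharge these enzymes did not pass the test. Txn1, the cytosolic thioredoxin (chromosome 4), had log2 signals of 0.49, 0.69, 0.34, 0.45 and 0.11 in R replicates 1 to 5, against 1.11, 1.63, 0.66, 0.50 and 0.70 in C replicates 1 to 5. R replicate 2 lay above C replicates 3 and 4, and C replicate 2 stood well above the others. The difference was -0.50 ± 0.20 (SE; limma adjusted p = 0.0732), and it was -0.33 without C replicate 2 (limma adjusted p = 0.0990). With the slide as a block it was -0.74 and called (limma adjusted p = 0.00362).

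Txn2, the mitochondrial thioredoxin that serves Prdx3 (chromosome 15), had log2 signals of 4.05, 4.12, 4.08, 4.15 and 4.04 in R replicates 1 to 5, against 3.93, 3.99, 3.98, 3.96 and 3.998 in C replicates 1 to 5. Every R array lay above every C array, by a small step. The difference was 0.12 ± 0.05 (SE; limma adjusted p = 0.0975), or 1.09 times the C level, and 0.16 ± 0.06 (SE; limma adjusted p = 0.0567) at its second probe. The authors' deposited table lists Txn2 with a log2 ratio of 0.134, a p of 0.0366 and a q of 0.515. Against the array median in place of the 75th percentile its value was -0.09, so its sign rests on the scale chosen. Relative to the median difference of all genes it was 0.15. That value is the same on both scales by construction, because a change of scale moves all genes alike.

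The sperm thioredoxins, whose start windows are poor in CG pairs, gave values of opposite sign, and neither was called. Txndc2, a thioredoxin of the fibrous sheath of the sperm tail (chromosome 17), had log2 signals of 4.66, 4.61, 4.73, 4.61 and 4.74 in R replicates 1 to 5, against 4.34, 3.73, 4.56, 4.56 and 4.29 in C replicates 1 to 5. Every R array lay above every C array, and C replicate 2 was 0.71 below the mean of the other C arrays. The difference was 0.37 ± 0.14 (SE; means 4.67 ± 0.06 in R testes and 4.30 ± 0.34 in C testes, SD, n = 5 each; limma adjusted p = 0.0639). Without C replicate 2 it was 0.23 with a limma adjusted p of 0.0378, and without C replicate 3 or 4 it was also called, so that the call turns on single arrays.

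Txndc8 (chromosome 4), a thioredoxin of the developing acrosome, had log2 signals of 4.56, 4.68, 4.59, 4.50 and 4.39 in R replicates 1 to 5, against 4.54, 4.86, 4.61, 4.68 and 4.84 in C replicates 1 to 5. The groups overlapped. The difference was -0.16 ± 0.09 (SE; limma adjusted p = 0.152), and -0.20 ± 0.08 (SE; limma adjusted p = 0.0736) at its second probe.

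The members also differed in how widely the arrays of a group were spread. The SD was larger among the C arrays than among the R arrays for 8 members, and larger among the R arrays for Prdx4 and Txn2. Without C replicate 2 the C arrays still had the larger SD for 7 members. The same share over all genes is not given here, so these counts show nothing particular to the members. C replicate 2 stood above the mean of the other C arrays by 0.71 for Prdx1, 0.79 for Prdx2, 0.61 for Prdx3 and 0.89 for Txn1, but by 0.09 for Prdx4 and 0.02 for Txn2. Without it 4 members fell and 1 rose, Txndc2, against 19.3% lower and 14.9% higher among all genes. The differences of Prdx1 to Prdx4 were then -0.51, -0.37, -0.43 and -0.51.

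**Figure D3:**
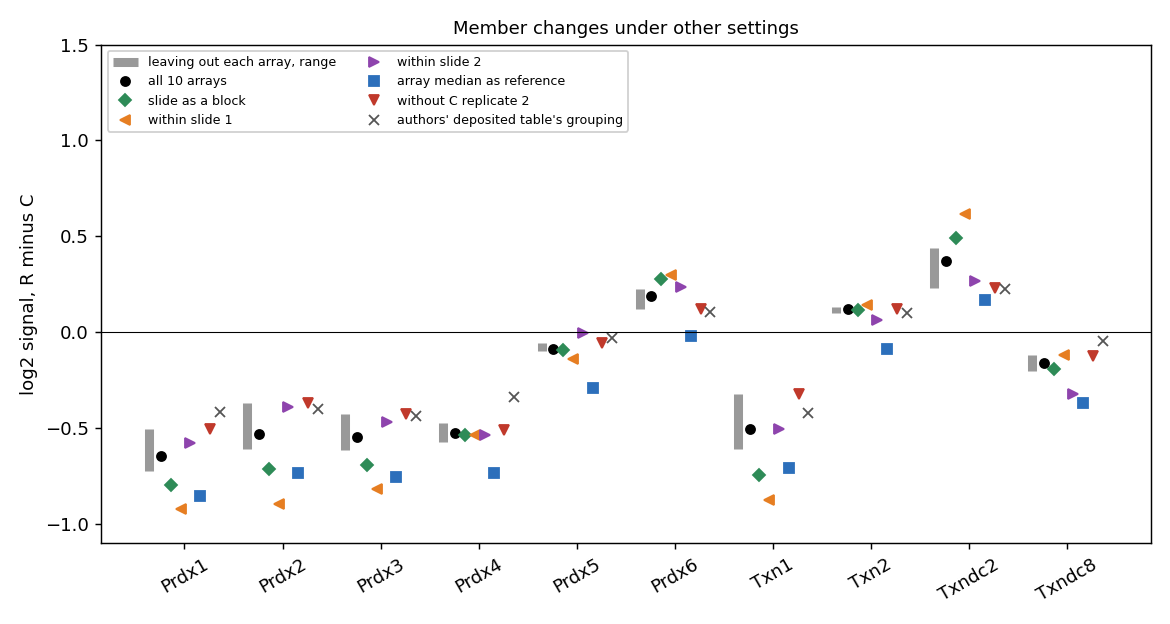
Difference in log2 signal, R minus C, of each member under other settings. Grey bars span the values with each array left out in turn, and symbols show the slide block, each slide alone, the array median as the scale, the set without C replicate 2 and the grouping of the authors' deposited table. Prdx1 to Prdx5, Txn1 and Txndc8 lie below 0 under every setting drawn, and Prdx6 and Txn2 cross 0 only on the array-median scale.

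Within slide 1, with 4 R and 2 C arrays, the differences were -0.92 for Prdx1, -0.89 for Prdx2, -0.82 for Prdx3, -0.54 for Prdx4, -0.88 for Txn1 and 0.62 for Txndc2, all called by limma (adjusted p = 0.0152 to 0.0359), on a slide where 22.6% of all genes were lower and 16.9% higher. C replicate 2 was 1 of those 2 C arrays, so it weighs more there than in the fit of all arrays. Within slide 2, where the single R array was assumed to vary like the C arrays, Prdx1 to Prdx4 and Txn1 differed by -0.58, -0.39, -0.47, -0.54 and -0.51, and 0 members were called (limma adjusted p = 0.107 for Prdx4, the lowest). Of all 16739 genes tested there, 0 (0%) were called either. At an unadjusted p under 0.05 that slide gave 5 members lower and 0 higher, against 12.6% lower and 8.38% higher among all genes. With the slide as a block 5 members fell, Txn1 with Prdx1 to Prdx4, and Txndc2 and the brighter probe of Prdx6 rose. Among all genes 28.6% were lower and 22.9% higher. The second Prdx6 probe had the other sign in the fit of all arrays. The mean of the Prdx6 probes there was 0.001 (limma adjusted p = 0.988). On the array-median scale the median difference of all genes was -0.23 in place of -0.03, 7 members were called lower, and so were 37.3% of all genes.

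The grouping of the authors' deposited table gave 0 member calls by limma, the lowest adjusted p being 0.461, and 1 member lower at an unadjusted p under 0.05. It called 0 (0%) of all 16738 genes, of which 5.03% were lower at an unadjusted p under 0.05. The differences of Prdx1 to Prdx4 under that grouping were -0.42, -0.40, -0.44 and -0.34. Without both arrays on which table and labels differ, the same 4 genes differed by -0.66, -0.58, -0.61 and -0.54. Prdx3 and Prdx4 were then called (limma adjusted p = 0.0475 and 0.0197), and Prdx1 and Prdx2 were not (limma adjusted p = 0.0506 and 0.0866), while 10.2% of all genes were called lower and 5.72% higher.

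A list of 13 genes for thioredoxin recycling and control held the thioredoxin reductases, binding partners of thioredoxin and users of its electrons, among others. All were tested, and 3 fell, 2 rose and 8 were not called. These shares were near those of all genes, 20.6% lower and 14.9% higher, and the median difference was -0.04, against -0.03 over all genes. Without C replicate 2 the counts were also 3 lower and 2 higher. Of the thioredoxin reductases, mitochondrial Txnrd2 fell by 0.55 ± 0.16 on the log2 scale (SE; means -0.34 ± 0.13 in R testes and 0.21 ± 0.36 in C testes, SD, n = 5 each; limma adjusted p = 0.0234), with no overlap of the groups. That call was lost without R replicate 1, 3 or 5 (limma adjusted p up to 0.0509). Cytosolic Txnrd1 differed by -0.09 ± 0.06 (SE; limma adjusted p = 0.258), with a second probe of the other sign. Txnrd3, the reductase of the testis that also carries a glutaredoxin domain, differed by 0.27 ± 0.10 (SE; limma adjusted p = 0.0604). It was 0.37 and called with the slide as a block (limma adjusted p = 0.009998), and it was also called within slide 1 (limma adjusted p = 0.0424) and without R replicate 2, C replicate 3 or C replicate 4.

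Msrb3, which repairs oxidised methionine with electrons from thioredoxin, rose by 0.80 ± 0.12 (SE; means 0.47 ± 0.10 in R testes and -0.33 ± 0.27 in C testes, SD, n = 5 each; limma adjusted p = 0.00228). This was 1.75 times the C level and the largest difference of the list. Sesn1, a stress-induced sestrin, fell by 0.44 ± 0.08 on the log2 scale (SE; limma adjusted p = 0.00358). Txnip, which binds thioredoxin and blocks it, fell by 0.65 ± 0.15 on the log2 scale (SE; limma adjusted p = 0.00840), yet its second probe gave 0.06 and the mean of its probes was not called (limma adjusted p = 0.0795). Map3k5, the kinase that thioredoxin holds inactive, rose by 0.35 ± 0.08 (SE; limma adjusted p = 0.00854), with a second probe at -0.02 and no call on the mean of its probes (limma adjusted p = 0.119). Both therefore hold for 1 of 2 probes.

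Of 24 other proteins built on the thioredoxin fold, all tested, 9 fell, 3 rose and 12 were not called, against 20.6% lower and 14.9% higher among all genes. The median difference was -0.17, against -0.03 over all genes. Without C replicate 2 the counts were also 9 lower and 3 higher. Pdcl3, a phosducin-like helper of protein folding, fell by 1.09 ± 0.16 on the log2 scale (SE; limma adjusted p = 0.00205), to 0.471 times the C level. Its signal was low, with means of -3.52 ± 0.20 in R testes and -2.43 ± 0.34 in C testes (SD, n = 5 each). The size of its fall varied with the processing, the difference being -0.65 with normexp background correction and -1.25 with quantile normalisation. Tmx1, a thioredoxin-like protein of the endoplasmic reticulum membrane, fell by 0.77 ± 0.10 on the log2 scale (SE; limma adjusted p = 0.00157), with a second probe at 0.04. Cytosolic Txndc17 and reticulum Txndc16 fell by 0.50 ± 0.11 and 0.29 ± 0.07 on the log2 scale (SE; limma adjusted p = 0.00707 and 0.0102). The testis thioredoxins of the list were Nme8, which rose by 0.33 ± 0.09 (SE; limma adjusted p = 0.0190) and by 0.52 ± 0.12 (SE; limma adjusted p = 0.0100) at its second probe, and Nme9, which differed by -0.02 ± 0.19 (SE; limma adjusted p = 0.950). Mitochondrial Glrx2 rose by 0.22 ± 0.07 (SE; limma adjusted p = 0.0354) and Txnl4b rose by 0.18 ± 0.06 (SE; limma adjusted p = 0.0459), and these calls were lost in 7 and 9 of 10 sets with 1 array left out. With the slide as a block Glrx2 was 0.16 and not called (limma adjusted p = 0.0522). The second Glrx2 probe gave 0.07 (limma adjusted p = 0.277), and the mean of its probes was not called (limma adjusted p = 0.0527).

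**Figure D4:**
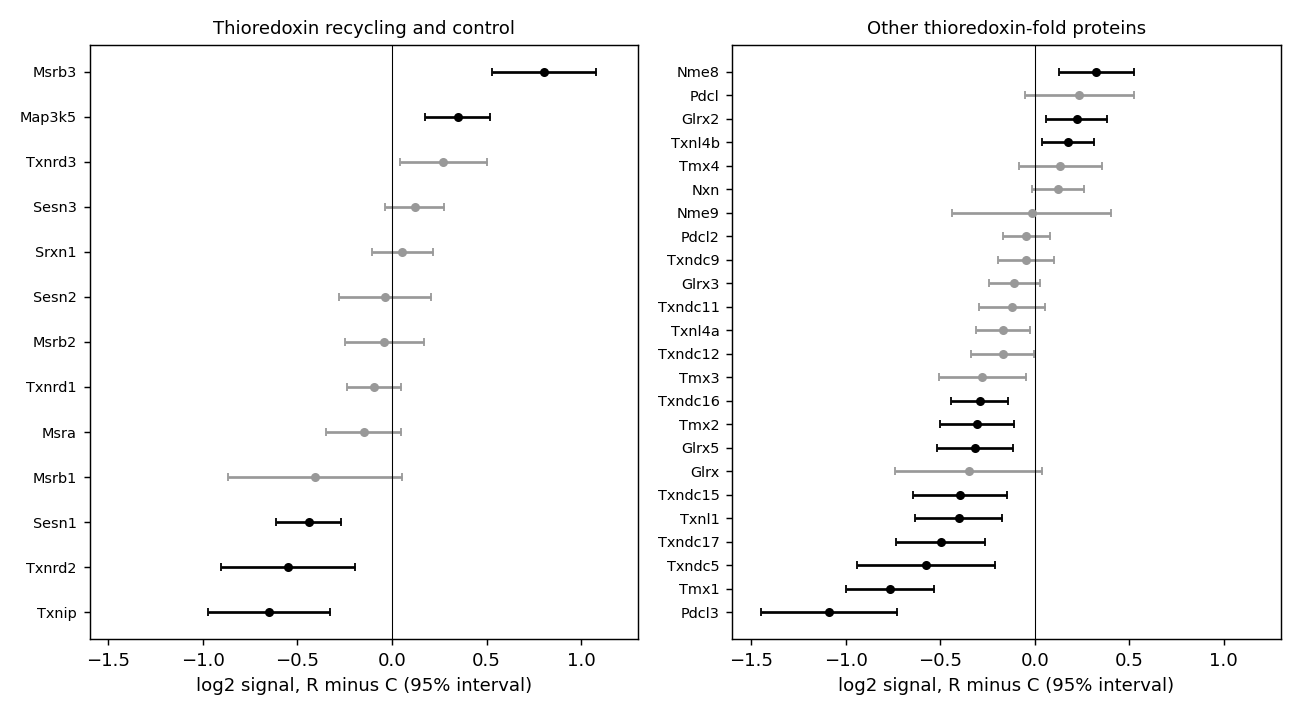
Difference in log2 signal, R minus C, with 95% intervals. Left are the 13 genes listed for thioredoxin recycling and control, and right are 24 other genes with a thioredoxin fold. Black marks an adjusted p under 0.05. Msrb3 is the highest at 0.80 and Pdcl3 the lowest at -1.09.

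Marker genes of several cell types moved with the fall of Prdx1 to Prdx4, and their part in it was not tested. Levels of each list were summed over its tested genes, as multiples of the array's 75th percentile. The counts of markers called stand against 20.6% lower and 14.9% higher among all genes tested. For Sertoli cells 8 of 9 tested markers fell, the sum being 54.8 to 59.8 in R testes and 76.0 to 128 in C testes, with Cst9 at -0.84 ± 0.13 (SE; limma adjusted p = 0.00207) and Inha at -0.59 ± 0.12 (SE; limma adjusted p = 0.00616). For spermatogonia 4 of 8 fell and 1 rose, the sum being 19.3 to 22.2 in R testes and 24.2 to 41.3 in C testes. There Stra8 differed by -0.78 ± 0.12 (SE; limma adjusted p = 0.00253) and Kit by -0.82 ± 0.13 (SE; limma adjusted p = 0.00279). The marker that rose was Gfra1, named here after its values were seen, at 0.37 ± 0.09 (SE; limma adjusted p = 0.0105). Zbtb16, Dmrt1 and Nanos3 were not called. In both lists the sums of R and C testes did not overlap, nor did the log2 signals of Prdx1, Prdx3 and Prdx4. C replicate 2 set the upper C end of both sums, and the other C arrays reached 99.0 for Sertoli cells and 30.7 for spermatogonia. Cst9 alone made up 58.5% to 65.2% of the Sertoli sum, and Uchl1 65.6% to 70.6% of the spermatogonial sum. Without these genes the sums were 22.2 to 24.8 in R testes and 26.4 to 46.3 in C testes for Sertoli cells, and 6.01 to 6.82 in R testes and 8.32 to 12.1 in C testes for spermatogonia.

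For Leydig cells 4 of 8 tested markers fell, Dlk1 and Hsd3b1 with the smallest p, and the sum was 15.98 to 21.7 in R testes and 20.8 to 38.4 in C testes. Among all genes tested 20.6% were lower. For macrophages 5 of 7 fell, Mrc1 and C1qb with the smallest p, and the sum was 2.12 to 3.32 in R testes and 3.12 to 5.01 in C testes. For red blood cells, which are rich in Prdx2, 4 of 6 tested markers fell, with Hbb-b2 at -1.59 ± 0.32 and Alas2 at -0.60 ± 0.17 (SE; limma adjusted p = 0.00584 and 0.0215). Their sum was 5.22 to 13.1 in R testes and 9.16 to 18.1 in C testes, and Slc4a1 did not pass the background filter. C replicate 2 set the upper C end of all these sums. The other C arrays reached 28.2 for Leydig cells, 4.83 for macrophages and 16.5 for red blood cells.

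For spermatocytes 4 of 8 markers fell without overlap of the groups, among them Hormad1, and 1 rose, Sycp2. Of all genes tested, 20.6% were called lower and 14.9% higher, and 16.5% were lower without overlap. The median difference of the spermatocyte markers was -0.30, against -0.27 for spermatogonia. The spermatocyte sum was 216 to 230 in R testes and 215 to 255 in C testes, of which Ldhc alone made up 76.6% to 84.6%. Without Ldhc it was 35.5 to 38.2 in R testes and 44.2 to 54.4 in C testes. C replicate 2 set the upper C end of the full sum, and the other C arrays reached 229. Spermatids make the sperm thioredoxins. For round spermatids 0 of 8 were called by limma (1 lower and 1 higher at an unadjusted p under 0.05), Catsper4 (0.36) and Spaca1 (-0.38) having the smallest p, with a sum of 88.1 to 105 in R testes and 78.5 to 111 in C testes. At that unadjusted p 26.9% of all genes were lower and 21% higher. For elongating spermatids 1 of 8 was called, Odf1 at -0.32 ± 0.10 (SE; limma adjusted p = 0.0327), while Prm1 differed by 0.23, and the sum was 1314 to 1497 in R testes and 1261 to 1495 in C testes. There too C replicate 2 set the upper C end, and the other C arrays reached 1326. Of 7 adipocyte markers 0 were called by limma (0 lower and 2 higher at an unadjusted p under 0.05, against 26.9% and 21% of all genes). Their sum was 3.11 to 13.1 in R testes and 1.95 to 8.57 in C testes. R replicate 2 and C replicate 2 set the upper ends, the highest of the other arrays being at 3.85 in R testes and 3.23 in C testes. Of 7 epididymis markers 1 passed the background filter.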

How the data were processed

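The authors deposited the scanner output of each array, and the submitters' processing notes name Agilent Feature Extraction 12.0.3.1. Its processed spot intensity had the background subtracted and a spatial trend removed inside each array, with no scaling between arrays, per the file headers. A second deposited file holds the authors' comparison of 2266 probes with log2 ratios, p-values and q-values, under its own grouping of the arrays. Of its per-sample columns, 10 were not used here.

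Control and outlier spots were left out and the spots of a probe averaged. The log2 signal is log2 of the deposited processed intensity less the 75th percentile of that array's non-control spots. Testing took probes flagged well above background on 5 or more of the 10 arrays (33851 probes, after 2 with a missing value were dropped), in limma 3.58.1 with R 4.3.3 (lmFit, eBayes, 2-sided). P-values were adjusted by Benjamini-Hochberg over all probes tested, and genes were called at an adjusted p under 0.05. The brightest probe stood for a gene. Of 56605 probes, 33767 were named through their accession in the RefSeq table of GRCm38.p6. Precision is limited by the number of arrays.

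The members, the gene lists and the rule for named genes were chosen with earlier results of these data known. The rule names all members, the called genes of a pathway list with the smallest p (up to 4 in each direction), the thioredoxin reductases, Nme8 and Nme9, and up to 2 markers of each cell type list given beside a member. The test was checked on simulated data of 33851 probes, 200 of them changed, with independent noise at each probe. There it called 78% of probes changed by 1 on the log2 scale and 5 of 33651 unchanged probes. The simulated data held no shift shared across the probes of an array, such as that of C replicate 2. The check therefore gives no error rate for arrays with such a shift. Alternatives changed the scale, the background correction, the filter, the variance model, the arrays used and the grouping. The normexp alternative used the median spot and local background intensity with an offset of 50.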

Additional observations from a re-analysis of the deposited data

Results flagged for a closer look

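Among the 31 probes of members and named pathway genes, each looked at in both groups of 5 arrays (62 groups), 1 array stood far from the rest of its group. For Txndc17, a cytosolic thioredoxin-like protein, C replicate 2 had a log2 signal of 2.57, while the nearest of the other C arrays was at 2.12 and the farthest at 1.99. Chance marks about 1 in 20 such groups. The same C array stood apart over all genes.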

How the results depend on the processing

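No paired analysis was possible because the labels give no replicate numbers, and those used here only name the arrays. The changes of Prdx1 to Prdx5, Txn1 and Txndc8 were negative, and that of Txndc2 positive, under each alternative run. Prdx5 and Txndc8 were called only on the array-median scale. Leaving out each array in turn gave 3 to 5 members lower and 0 to 1 higher, against 14.7% to 22.1% lower and 9.84% to 16.2% higher among all genes. The members called lower, 4 in the fit of all arrays, were 7 with the array median as the scale, 2 without both arrays that the authors group otherwise, and 0 within slide 2 or under the authors' grouping, where limma gave 5 and 1 at an unadjusted p under 0.05. Those settings called 0 of all genes, with 2114 and 842 lower at an unadjusted p under 0.05. Among all genes 37.3% were lower with the array median and 10.2% without both of those arrays. The members called higher, 0 in the fit of all arrays, were 1 with normexp (Txndc2), within slide 1 (Txndc2) or with array weights (Txn2). They were 2 with the slide as a block (Txndc2 and the brighter probe of Prdx6) or a trended variance (Txn2, Txndc2). In that order, 15.6%, 16.9%, 16.9%, 22.9% and 16.5% of all genes were higher. Without a background filter Prdx2 was not called (limma adjusted p = 0.0806). The array median turned Prdx6 to -0.018, Txn2 to -0.088 and Txnl4b to -0.029, and the mean of probes turned Txnrd1 to 0.014. Nme9 was 0.12 when slide was a block, 0.30 on slide 1, 0.18 under the authors' grouping, 0.10 without both of those arrays, and -0.12 to 0.14 with an array left out. Of the thioredoxin recycling genes, 5 were lower with the slide as a block, and 0 were lower or higher within slide 2 or under the authors' grouping; 1 was higher with the array median, quantile normalisation or the mean of probes, against 2 in the fit of all arrays. Of the other thioredoxin-fold genes, 3 were lower without both arrays and 0 within slide 2 or under the authors' grouping. Higher ones, 3 in that fit, were 0 with the array median, without a filter, within slide 2, under the authors' grouping or without both arrays, 1 with quantile normalisation or within slide 1, 5 with array weights, and 1 to 3 with an array left out. At an unadjusted p under 0.05, limma gave 4 recycling genes lower and 2 higher and 7 fold genes lower and 0 higher within slide 2. Beside the counts of both lists, 28.6% of all genes were lower with the slide as a block and 10.2% without both arrays. The shares higher were 5.43% with the array median, 12.9% with quantile normalisation and 15.2% with the mean of probes. They were 6.51% without a filter, 5.72% without both arrays, and 16.9% within slide 1 or with array weights. Fewer samples or more probes tested enter the slide sets and the unfiltered set. For the other settings the cause was not tested.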
